A study of Homo sapiens with 6 samples.

Results

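The 39 genes described here code for the proteins that license, fire and copy replication origins, for the enzymes that supply nucleotides, and for the E2F factors and cyclins E of the G1/S step. They were chosen by symbol, as a list of known function, and no measured value enters the rule. Earlier results of these data were known when the list was chosen. All 39 were found among the 23062 identifiers of each table and among the 12359 genes tested. RNA sequencing was carried out on DU145 cells, an androgen-independent human prostate cancer (PCa) line with the genotype label WT. The control group was 3 libraries from cells kept in MEM medium for 48 h, and the treated group was 3 libraries from cells given taraxasterol (TAX), a plant triterpenoid, at 56 µM for 48 h. The labels give the dose as the IC50, and the study's methods give its concentration. TAX was dissolved in DMSO, and whether the control cells received DMSO is not given in the sources used here. The methods state in general that experiments were repeated. No source ties the 3 libraries of a group to separate cultures, so the p-values measure only the spread between these samples, which may be technical.

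Before S phase, the origin recognition complex, CDC6 and CDT1 load the ring-shaped MCM2 to MCM7 helicase onto DNA, and CDC45 and the GINS complex then switch it on. DNA polymerases held by the PCNA clamp copy both strands, while ribonucleotide reductase and thymidylate synthase supply the building blocks. In the general scheme, E2F factors are released from the RB protein by cyclin-dependent kinases and drive the transcription of many of these genes. The transcripts of these genes are therefore widely used as a sign of proliferating cells. RB protein was not measured here, and its function in DU145 cells was not tested.

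The values were taken as FPKM (fragments scaled by transcript length and by library size), so levels can be set beside each other between genes per length. The depth of the libraries is unknown, since the low values do not fall on steps of whole reads. The 5 epithelial markers were present in every library, for example EPCAM at 55 to 66.2 FPKM and KRT8 at 126 to 173 FPKM. Their summed level, without further scaling, was 428 to 545 FPKM in control and 555 to 606 FPKM in TAX libraries. All TAX libraries were above control for EPCAM, KRT18 and KRT19, an order found for 14.6% of all tested genes. KRT8 overlapped, and CDH1 was at 54.9, 66.8 and 40.7 FPKM in control and 50.8, 42.8 and 49.0 FPKM in TAX libraries. KLK3, which codes for the secreted protein PSA, was listed at 0 in every library. The 4 leukocyte and endothelial markers were under 0.05 FPKM in every library. Of 3 fibroblast markers, COL1A2 and DCN were listed at 0 and COL1A1 was at 1.89 to 2.08 FPKM in control and 1.42 to 1.48 FPKM in TAX libraries, and its part in the results was not tested. Control 3 stood apart from the other libraries, with the lowest sum of FPKM (322483, against up to 363724) and the lowest median over the tested genes, 3.283 against 3.438 to 3.458 on the log2(FPKM + 1) scale.

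The comparison of TAX with control asked how expression in DU145 cells changed after treatment. None of the 39 replication and S-phase genes passed the test at an adjusted p under 0.05 (limma on log2(FPKM + 1), Benjamini-Hochberg adjustment over all 12359 genes), where 0.477% of all tested genes did. None passed at an unadjusted p under 0.05 either, against 7.73% of all genes on the higher side and 2.41% on the lower side. The log2 fold changes of TAX over control ran from -0.12 for POLA2 to 0.22 for RFC2. Of the 39 genes, 30 had the higher mean in TAX and 9 the higher mean in control, and their median log2 fold change was 0.056, beside 0.054 and 69.1% higher over all tested genes. After centring each library on its median, 19 were higher and 20 lower.

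Without further scaling of the libraries, the size of difference that they allow was narrow. The 95% interval of each fold change, not adjusted for the number of genes, stayed within 1.5-fold in both directions for 39 of 39 genes and within 1.3-fold for 36. The lowest bound belonged to POLA2 and corresponded to a fall of 25.8%, and the highest bound belonged to RFC2 and corresponded to a gain of 37.1%. All these bounds are of FPKM + 1 and understate those of FPKM itself for low genes. With a pseudocount of 0.1, the log2 fold change of POLA2 was -0.134 ± 0.155 (SE). After centring, the log2 fold change was -0.178 ± 0.148 (SE) for POLA2, -0.177 ± 0.143 for CCNE2 and 0.164 ± 0.09 for RFC2. The bounds therefore move with the scaling, and a fall beyond 25.8% is not excluded. Over the list, in FPKM + 1, the median of the lower bounds was 8.99% below control and the median of the upper bounds was 19.7% above it. Standard errors of the log2 fold change ran from 0.076 for PRIM1 to 0.14 for POLA2. In bulk RNA, the share of cells in S phase and the RNA of these genes per cell cannot be told apart.

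**Figure D1:**
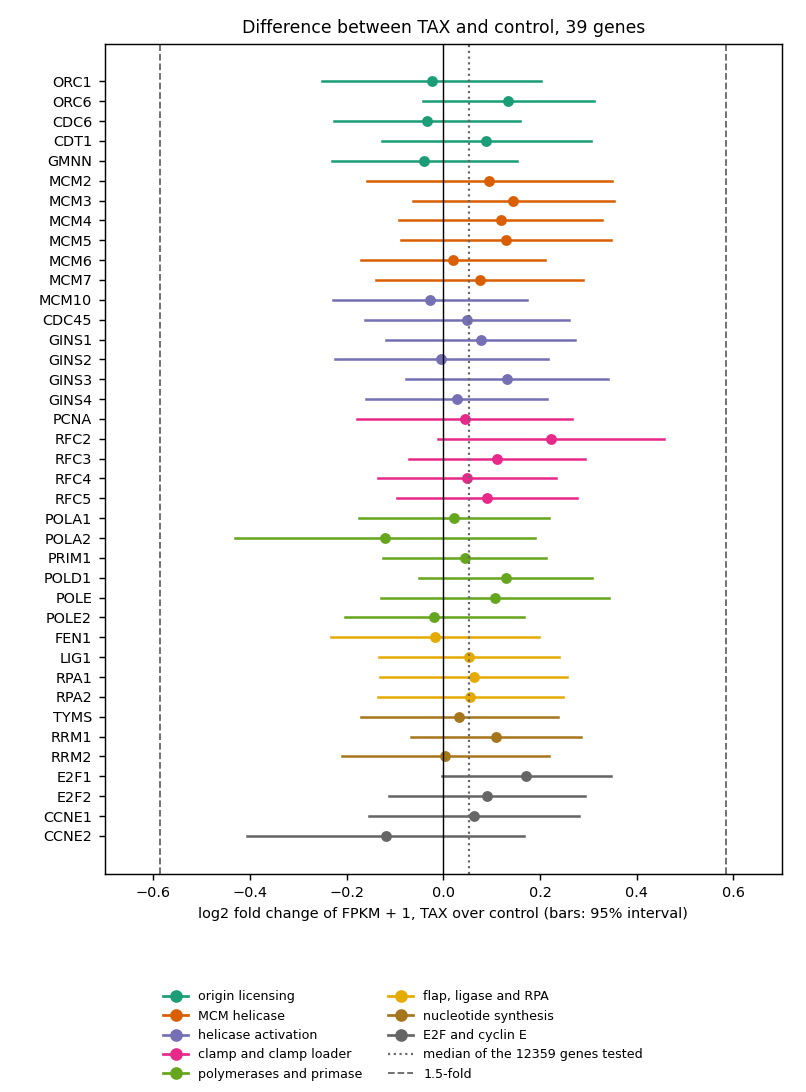
Log2 fold change of FPKM + 1, TAX over control, for each of the 39 genes on the horizontal axis, coloured by role, with 95% intervals as bars. Every interval lies between the dashed lines at 1.5-fold, and the dotted line is the median of all tested genes at 0.054.

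A group of TAX libraries that all lay above the control libraries was found for 3 of the 39 genes, ORC6, POLD1 and E2F1 (7.69%), where 14.6% of all tested genes had this order. No member had all TAX libraries below control, an order found for 3.34% of all genes. With 3 libraries against 3, the smallest p that an exact two-sided permutation test can give is 0.1, and these 3 genes had this value. The difference between the group means was below the larger of both group SDs for 34 of the 39 genes. It was at or above it for ORC6, RFC2, POLD1, RRM1 and E2F1. The same count was not made over all tested genes, so it does not set these genes apart.

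The start regions of these genes were read to see which letters they share, since the list is known for E2F control. RefSeq windows of 300 bases (assembly GRCh38.p14, 250 before to 50 after the transcript start) were matched by symbol for 34 of the 39 genes, in 42 windows. MCM4, MCM5, GINS4, RPA2 and CCNE2 had no entry. The E2F letters TTTCCCGC, TTTCGCGC, TTTGCCGC and TTTGGCGC, searched on both strands, where matches on opposite strands can overlap, were present in 20 of 34 genes (58.8%) and in 47.6% of their windows, against 3.31% of all 35116 windows. The CCAAT box (CCAAT, both strands) was present in 59.5% of the windows, against 34.6% of all windows. The CHR element TTTGAA, known from promoters of mitotic genes, was present in 1 of the 34 genes, and 15.2% of all windows held it. These matches describe the letters only and are not measured binding. The 200 bases before the start are given for E2F1 and for the 3 MCM genes that had more than 1 E2F match in the window and at least 1 before the start, with the E2F letters in capitals. The regions are chr2:135876444-135876643 for MCM6, chr20:33686386-33686585 for E2F1, chr6:52284743-52284942 for MCM3 and chr7:100101398-100101597 for MCM7, all on the minus strand and written 5′ to 3′.
MCM6: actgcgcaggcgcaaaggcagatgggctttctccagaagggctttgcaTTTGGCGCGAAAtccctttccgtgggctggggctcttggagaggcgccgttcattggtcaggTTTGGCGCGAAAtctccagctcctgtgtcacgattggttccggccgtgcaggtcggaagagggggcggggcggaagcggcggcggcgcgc
E2F1: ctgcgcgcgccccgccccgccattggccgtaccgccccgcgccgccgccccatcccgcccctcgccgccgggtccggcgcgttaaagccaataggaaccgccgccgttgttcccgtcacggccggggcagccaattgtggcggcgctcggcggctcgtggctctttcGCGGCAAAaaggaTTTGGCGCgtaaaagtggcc
MCM3: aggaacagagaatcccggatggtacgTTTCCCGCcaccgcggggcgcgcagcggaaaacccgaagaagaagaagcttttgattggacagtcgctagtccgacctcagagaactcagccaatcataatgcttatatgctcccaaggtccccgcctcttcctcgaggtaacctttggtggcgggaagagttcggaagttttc
MCM7: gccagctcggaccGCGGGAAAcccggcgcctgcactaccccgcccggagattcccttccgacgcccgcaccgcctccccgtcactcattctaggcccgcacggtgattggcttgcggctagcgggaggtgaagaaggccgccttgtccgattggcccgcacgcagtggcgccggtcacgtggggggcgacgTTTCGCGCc

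In MCM6 each run of capitals holds a match on each strand, so its 2 runs carry 4 matches. In E2F1 both matches lay close to the start, and in MCM7 they lay at opposite ends of the printed stretch. For 18 of the 20 genes with a match, at least 1 match ended within 100 bases before the start or lay after it, and 11 genes held E2F and CCAAT letters in the same window. The median log2 fold change of TAX over control was 0.064 for the 20 genes with an E2F match and 0.056 for the 14 matched genes without.

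**Figure D2:**
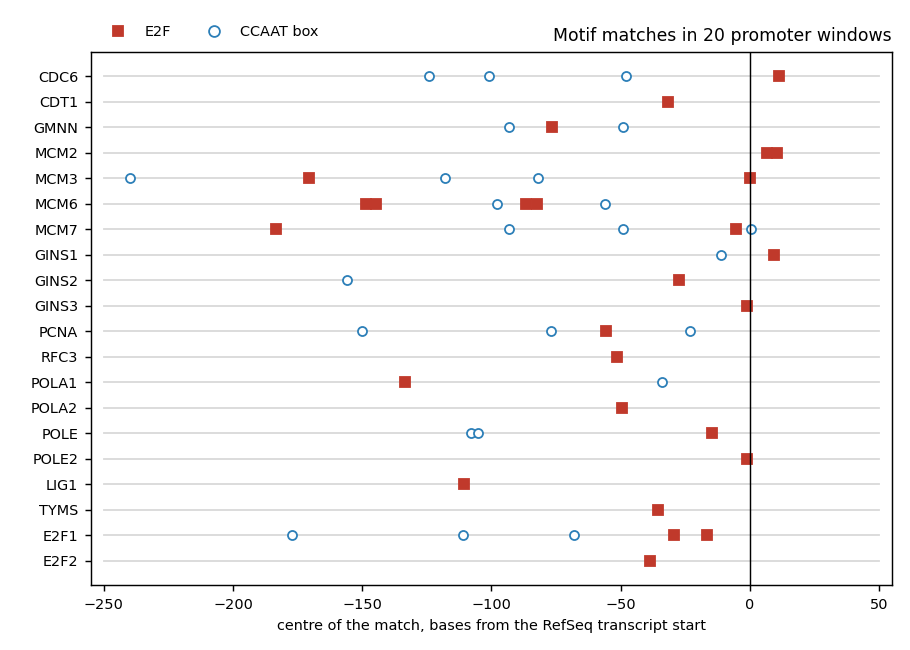
Positions of E2F letters (filled squares) and CCAAT boxes (open circles) in bases from the RefSeq transcript start, 1 row for each of the 20 genes with an E2F match. E2F letters gather near the start, with 18 of 20 genes having a match that ends within 100 bases before it or lies after it.

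Origin licensing genes (5 members) had a median log2 fold change of -0.02, and 2 of 5 had the higher mean in TAX. ORC6, a subunit of the origin recognition complex (GRCh38 chr16:46689643-46698394, plus strand), was at 23.3, 22.9 and 23.4 FPKM in control and 24, 27.6 and 25.2 FPKM in TAX libraries. All TAX libraries were above all controls, and the log2 fold change was 0.13 ± 0.08 (SE, adjusted p = 0.588, limma). CDC6, the loader that brings the MCM ring to the origin, was at 18.6, 16.6 and 17.6 FPKM in control and 15.9, 18.8 and 17.0 FPKM in TAX libraries. The groups overlapped and their means of 17.6 and 17.2 FPKM lay within the spread of either group. ORC1, the largest subunit of the origin complex, had means of 8.54 ± 0.782 FPKM in control and 8.4 ± 1.08 FPKM in TAX (here and in what follows SD, n = 3). CDT1, which loads MCM together with CDC6, had means of 8.56 ± 0.884 and 9.16 ± 0.873 FPKM. Geminin (GMNN), the inhibitor of CDT1, had means of 28.2 ± 2.12 and 27.3 ± 1.68 FPKM, and the ratio of CDT1 to GMNN levels ran from 0.256 to 0.347 over the 6 libraries.

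All 6 genes of the MCM2 to MCM7 helicase had the higher mean in TAX, with a median log2 fold change of 0.107 and a range from 0.02 for MCM6 to 0.14 for MCM3. The median was 0.05 after centring each library on its median, and 0.04 without control 3. After centring or quantile normalization MCM6 turned negative, and none of the 6 passed the test (smallest adjusted p = 0.621, limma, MCM3). MCM4 was at 74.6, 67.5 and 61.1 FPKM in control and 68.9, 78.0 and 73.5 FPKM in TAX libraries. MCM2 was at 34.0, 31.5 and 24.6 FPKM in control and 30, 33.3 and 32.3 FPKM in TAX libraries. In both genes control 3 was the lowest library and the groups overlapped. The same library was lowest of all 6 for each of the 6 MCM genes. Without control 3 the log2 fold change of MCM2 was -0.04 in place of 0.10, and that of MCM3 was 0.06 in place of 0.14. The means in control and TAX were 51.1 ± 5.34 and 56.4 ± 2.60 FPKM for MCM3, 24.1 ± 2.39 and 26.4 ± 2.42 FPKM for MCM5, 39.4 ± 2.43 and 39.9 ± 2.80 FPKM for MCM6, and 52.6 ± 4.12 and 55.5 ± 5.53 FPKM for MCM7. The proteins form a ring with 1 copy of each, but the transcripts were not at equal levels. Over MCM5, the lowest, the mean level was 2.80 times as high for MCM4, 2.14 for MCM7, 2.13 for MCM3, 1.57 for MCM6 and 1.23 for MCM2, and the MCM4 ratio stayed between 2.68 and 2.88 in the 6 libraries. The order of the 6 genes was the same as that of the means in 3 of 6 libraries.

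**Figure D3:**
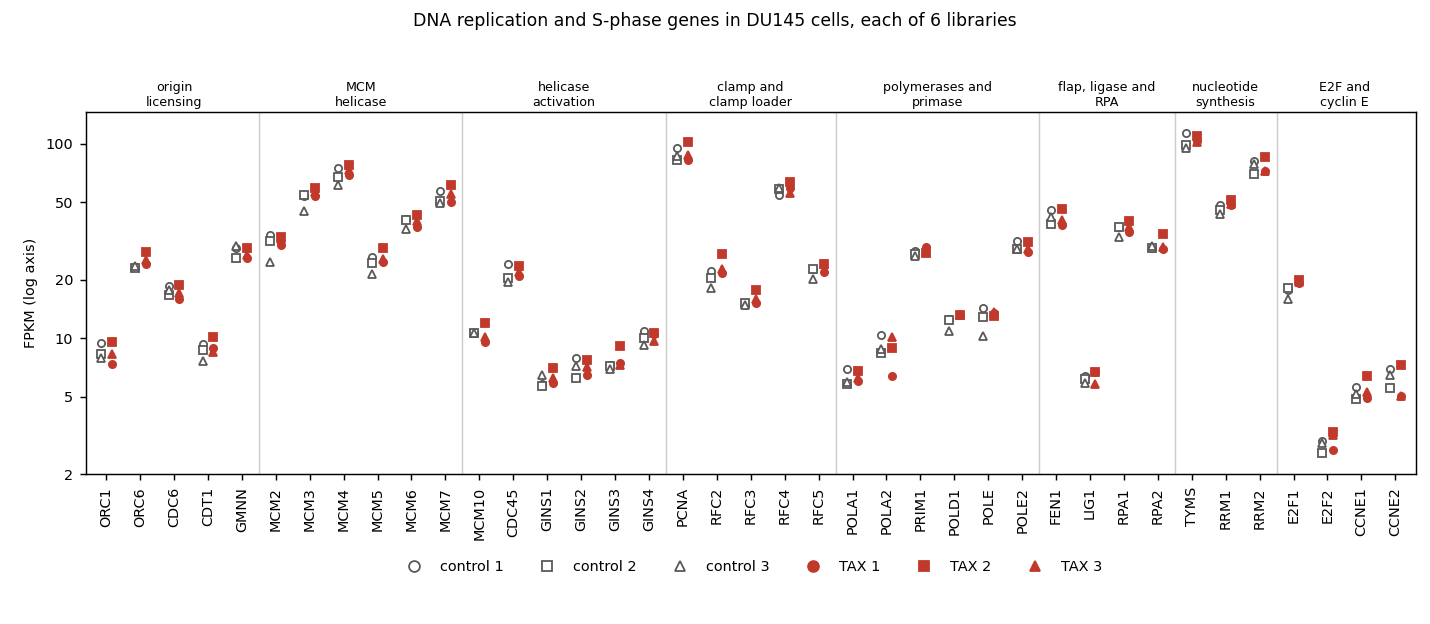
FPKM of the 39 genes in each of the 6 libraries on a log axis, ordered by role, with control libraries as open grey symbols and TAX libraries as filled red symbols. The groups lie on top of each other for most genes, and levels run from 2.56 FPKM (E2F2) to 114 FPKM (TYMS).

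Among the 6 genes that switch the helicase on, 4 had the higher mean in TAX, of which CDC45 and GINS4 turned negative after centring and quantile normalization, and the median log2 fold change was 0.04. GINS1, a GINS subunit and among the 4 lowest genes of the list, was at 5.81, 5.69 and 6.47 FPKM in control and 5.87, 7.0 and 6.28 FPKM in TAX libraries. TAX 2 was the highest library and the groups overlapped, with a log2 fold change of 0.08 ± 0.09 (SE). MCM10, which helps to fire the assembled helicase, had means of 10.7 ± 0.0204 FPKM in control and 10.5 ± 1.27 FPKM in TAX, so that its 3 controls were nearly equal while the TAX libraries ran from 9.52 to 12.0 FPKM. CDC45, the helicase cofactor, had means of 21.4 ± 2.49 and 22.1 ± 1.29 FPKM. For the other GINS subunits, means in control and TAX were 7.11 ± 0.858 and 7.08 ± 0.617 FPKM for GINS2, 7.14 ± 0.207 and 7.96 ± 1.05 FPKM for GINS3, and 10.1 ± 0.826 and 10.3 ± 0.477 FPKM for GINS4. The log2 fold change of GINS3 was 0.13, and 0.04 without TAX 2.

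All 5 genes of the sliding clamp and its loader had the higher mean in TAX, with a median log2 fold change of 0.09, and PCNA and RFC4 turned negative after centring and after quantile normalization. PCNA, the clamp that holds polymerases on DNA, was at 95.5, 82.2 and 86.7 FPKM in control and 82.9, 102 and 88.0 FPKM in TAX libraries. Control 1 and TAX 2 were the high libraries, and the groups overlapped across nearly their whole range. The log2 fold change of PCNA was 0.04 ± 0.10 (SE). RFC2, a subunit of the clamp loader (GRCh38 chr7:74231499-74254458, minus strand), had the highest fold change of the list, with means of 20.3 ± 2.04 and 23.9 ± 2.91 FPKM and a log2 fold change of 0.22 ± 0.105 (SE, adjusted p = 0.503, limma). Its TAX libraries overlapped the controls, and the log2 fold change was 0.13 without TAX 2. The other loader subunits had means in control and TAX of 15.0 ± 0.166 and 16.3 ± 1.37 FPKM for RFC3, 57.4 ± 2.49 and 59.5 ± 3.91 FPKM for RFC4, and 21.9 ± 1.54 and 23.3 ± 1.2 FPKM for RFC5.

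Among the 6 polymerase and primase genes, 4 had the higher mean in TAX, of which POLA1 and PRIM1 turned negative after centring and quantile normalization, and the median log2 fold change was 0.03. POLD1, the catalytic subunit of polymerase delta (GRCh38 chr19:50384204-50418016, plus strand), was at 12.5, 12.4 and 10.9 FPKM in control and 13.2, 13.2 and 13.1 FPKM in TAX libraries. All TAX libraries were above all controls and differed little among themselves, and the log2 fold change was 0.13 ± 0.08 (SE, adjusted p = 0.606, limma). POLA2, the regulatory subunit of polymerase alpha, had the widest spread of the list, 1.62-fold from the lowest to the highest library, with means of 9.19 ± 1.03 and 8.48 ± 1.90 FPKM. PRIM1, the primase subunit that starts each fragment, had the narrowest, 1.11-fold, with means of 27.2 ± 0.888 and 28.1 ± 1.08 FPKM. The means in control and TAX were 6.24 ± 0.60 and 6.34 ± 0.412 FPKM for POLA1, the catalytic subunit of polymerase alpha, 12.5 ± 1.97 and 13.4 ± 0.353 FPKM for POLE, that of polymerase epsilon, and 29.7 ± 1.85 and 29.3 ± 1.81 FPKM for POLE2, its accessory subunit. POLA2, PRIM1 and POLD1 share exon bases with another gene on the same strand in GENCODE 29, so how reads were divided there is uncertain. For POLD1 this partner was listed at 0 in every library, while for PRIM1 the partner NACA was at 188 to 215 FPKM, well above PRIM1 itself.

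FEN1, LIG1, RPA1 and RPA2 process the lagging strand or cover single-stranded DNA, and 3 of these 4 had the higher mean in TAX, with a median log2 fold change of 0.06, although RPA2 turned negative after both scalings, RPA1 after quantile normalization and LIG1 after centring. The means in control and TAX were 42.1 ± 3.60 and 41.6 ± 4.11 FPKM for FEN1, the nuclease that trims flaps, and 6.13 ± 0.271 and 6.41 ± 0.52 FPKM for LIG1, the ligase that joins the fragments. RPA1 had means of 35.9 ± 2.55 and 37.6 ± 2.48 FPKM, and RPA2 had means of 29.4 ± 0.483 and 30.7 ± 3.02 FPKM. FEN1 shares a few exon bases with FADS2 on the same strand.

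Of the 3 nucleotide genes, TYMS had the highest mean level of the list, while RRM2 had rank 3 and RRM1 rank 8. All 3 had means in TAX that were equal to or above control, by log2 fold changes of at most 0.11. TYMS, thymidylate synthase, was at 114, 98.8 and 95 FPKM in control and 103, 109 and 102 FPKM in TAX libraries. RRM2, the regulated subunit of ribonucleotide reductase, was at 81.2, 69.9 and 78.2 FPKM in control and 72.7, 85.4 and 72.2 FPKM in TAX libraries. For both genes the groups overlapped, with the 2 highest libraries being control 1 and TAX 2. The log2 fold change was 0.03 ± 0.09 (SE) for TYMS and 0.004 ± 0.10 (SE) for RRM2, and both turned negative after centring and after quantile normalization. RRM1, the large subunit, had means of 45.9 ± 2.40 and 49.6 ± 1.73 FPKM. RRM2 shares exon bases with a same-strand gene in GENCODE 29. TYMS shares exon bases with TYMSOS and ENOSF1 on the opposite strand, where the largest overlap is 967 of its 2470 exonic bases.

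Of the G1/S regulators, 3 of 4 had the higher mean in TAX, with a median log2 fold change of 0.08. E2F1, an activator of S-phase genes that carries E2F letters in its own start region as printed above (GRCh38 chr20:33675683-33686404, minus strand), was at 17.8, 18.1 and 16.0 FPKM in control and 19.3, 20 and 19.5 FPKM in TAX libraries. All TAX libraries were above all controls. The mean was 1.13 times the control mean, and the log2 fold change of 0.17 ± 0.08 (SE) had the smallest unadjusted p of the list, 0.0533, which became an adjusted p of 0.493 in limma. E2F2, a close relative and the lowest gene of the list, was at 2.98, 2.56 and 2.89 FPKM in control and 2.67, 3.31 and 3.20 FPKM in TAX libraries. The cyclins E, which activate CDK2 for entry into S phase, were also low. CCNE1 was at 5.61, 4.90 and 5.14 FPKM in control and 4.93, 6.36 and 5.27 FPKM in TAX libraries, and CCNE2 at 6.91, 5.54 and 6.47 FPKM in control and 5.04, 7.28 and 5.03 FPKM in TAX libraries. The groups overlapped for E2F2 and both cyclins, each with TAX 2 as the highest library. CCNE2 had the lowest ratio of the list, a TAX mean 0.917 times the control mean, and TAX 1 and TAX 3 lay below all controls while TAX 2 lay above them.

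By level, 7 genes were above 50 FPKM, 21 from 10 to 50 FPKM and 11 under 10 FPKM on the mean of 6 libraries. The order began with TYMS (104 FPKM), PCNA (89.6 FPKM), RRM2 (76.6 FPKM) and MCM4 (70.6 FPKM) and ended with GINS1, CCNE2, CCNE1 and E2F2 (6.19, 6.05, 5.37 and 2.93 FPKM). Of the 38 pairs of neighbours in this order, only RFC3 over POLE and CCNE1 over E2F2 did not overlap across the 6 libraries. The median gene varied 1.23-fold between its lowest and highest library. The median SD within groups on the log2(FPKM + 1) scale was 0.106 for the 39 genes and 0.109 for all tested genes.

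Libraries within a group differed from each other by more than the group means did. TAX 2 was the highest of the 3 TAX libraries for 35 of the 39 genes, all except POLA2, PRIM1, POLE and LIG1, where it was highest for 41.5% of all tested genes. It was the highest of all 6 libraries for 27 genes (69.2%, against 24.7% of all genes), and for 20 after centring (51.3%, against 20.4%). Control 1 was the highest control for 28 genes (71.8%, against 46.6% of all genes), and TAX 1 the lowest TAX library for 28 (71.8%, against 32.2%). Control 3 was the lowest of all 6 for 20 genes (51.3%), beside 58.0% of all tested genes. The mean deviation of the 39 genes from their gene means on the log2 scale was 0.06, -0.05 and -0.09 in control 1, 2 and 3, and -0.05, 0.13 and 0.003 in TAX 1, 2 and 3. The library means of the list differed between TAX and control by 0.06, with SDs of 0.08 among controls and 0.10 among TAX libraries, and by -0.003 after centring. After centring, the mean deviation was 0.04, -0.09 and 0.05 in control 1, 2 and 3, so that control 3 was no longer low and control 1 no longer stood above its group, and it was -0.09, 0.11 and -0.02 in TAX 1, 2 and 3. TAX 2 was the highest library on both scales, and what set it above its group was not tested.

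**Figure D4:**
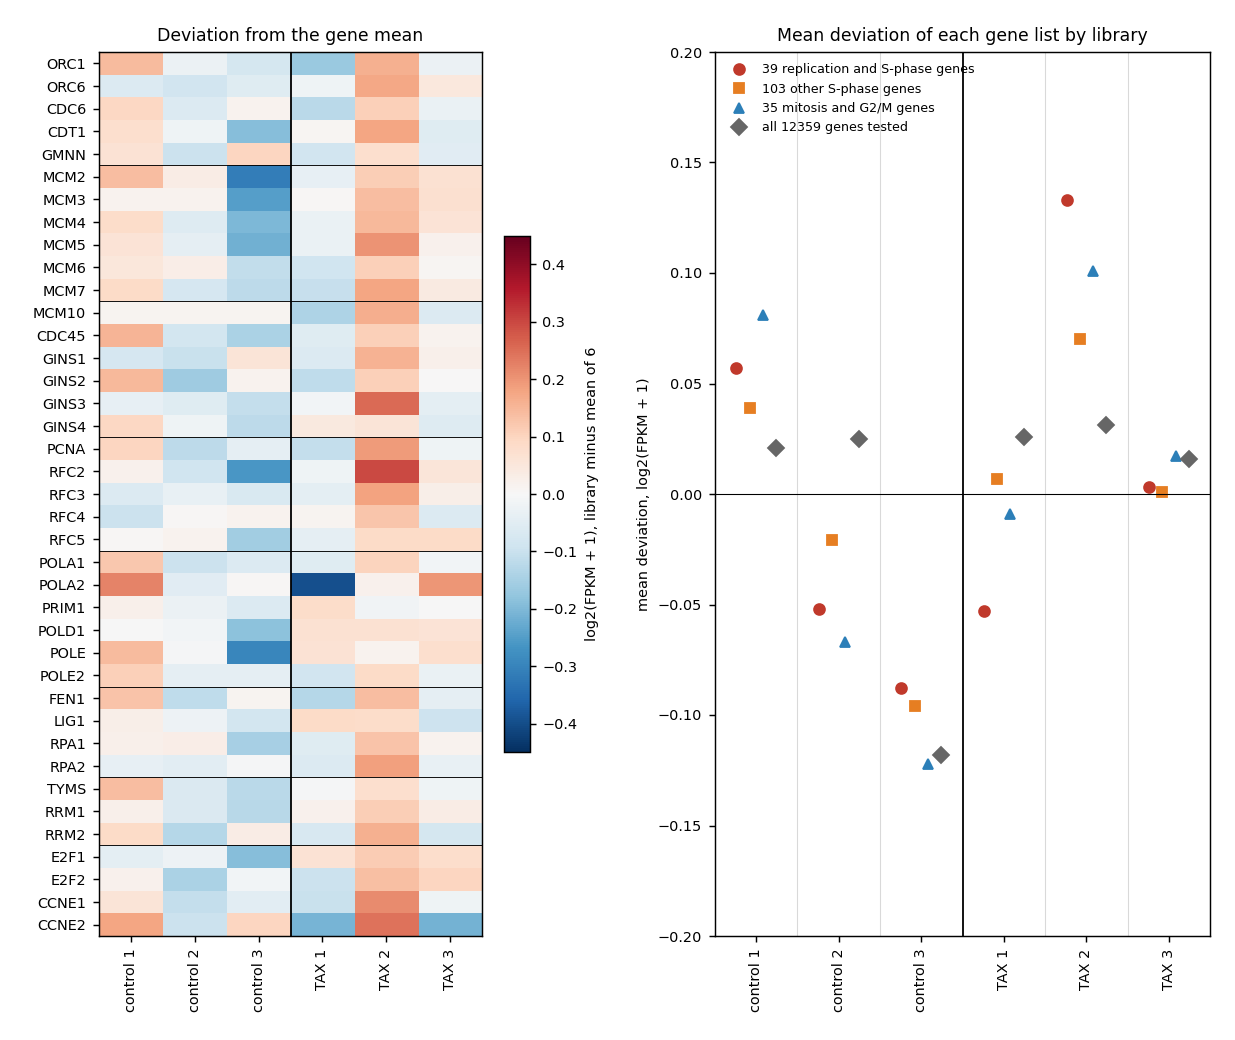
Left, deviation of each of the 39 genes from its mean over the 6 libraries, log2(FPKM + 1), in colour. Right, the mean deviation of 4 gene lists in each library, where the 39 genes (circles) are highest in TAX 2 at 0.13 and lowest in control 3 at -0.09, a library that is also low for all genes.

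Other S-phase genes, a list of 103 that holds further replisome, G1/S, nucleotide supply, chromatin assembly and checkpoint genes, gave a like picture. None passed at an adjusted p under 0.05, 79 of 103 had the higher mean in TAX and the median log2 fold change was 0.05, which became -0.01 after centring. At an unadjusted p under 0.05 there were 3 on the higher side (2.91%, against 7.73% of all genes) and 1 on the lower (0.971%, against 2.41%). E2F7, a repressor of the E2F family, had means of 3.72 ± 0.0358 and 4.36 ± 0.0201 FPKM. MTHFD1 and ATIC, enzymes of folate and purine synthesis, had means of 48.3 ± 3.02 and 56.2 ± 3.39 FPKM and of 33.4 ± 2.65 and 38.5 ± 2.04 FPKM. CHEK2, a checkpoint kinase, had means of 26.3 ± 1.82 and 22.3 ± 0.443 FPKM, with all TAX libraries below control. For these 4 genes the adjusted p was 0.437, 0.437, 0.475 and 0.373 in limma. Of the 17 nucleotide supply genes, 16 (94.1%) had the higher mean in TAX, with a median log2 fold change of 0.13 (0.07 above the median of all tested genes). Of the 19 checkpoint and repair genes 8 (42.1%) did, with a median of -0.01, where 69.1% of all tested genes were higher. These classes were not tested as sets, and their values are without centring.

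Genes of mitosis and G2/M, a list of 35, were set beside the S-phase genes as the next step of the cycle. None passed at an adjusted p under 0.05, 29 of 35 had the higher mean in TAX and the median log2 fold change was 0.069, which became 0.011 after centring and 0.004 after quantile normalization. BIRC5, which codes for survivin, was the only gene of this list at an unadjusted p under 0.05 (2.86% on the higher side, against 7.73% of all genes), with means of 52.1 ± 0.559 and 59.8 ± 5.28 FPKM and an adjusted p of 0.486 in limma. CDC20, CCNB1 and MAD2L1, which act at the entry to and the checkpoint of mitosis, had log2 fold changes of 0.24, 0.16 and 0.18 with adjusted p of 0.50, 0.525 and 0.543. Leaving out control 3 gave 0.13 for CDC20, and leaving out TAX 2 gave 0.12 for BIRC5 and 0.08 for MAD2L1. TAX 2 was also the highest of all 6 libraries for 17 of these 35 genes and for 38 of the 103 other S-phase genes.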

How the data were processed

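Total RNA of DU145 cells was isolated with Trizol, and libraries were made with the Hieff NGS Ultima Dual-mode mRNA kit. The submitters' processing notes name HISAT2 2.2.0, StringTie 2.1.2 and GRCh38, without their roles, and the strand setting is not given in the sources used here. Each library has its own table of gene values, without pooling. The values deposited by the authors were taken as FPKM from their range and sums, since the tables do not state the unit, and how they were computed is not given beyond these tool names. Read depth is unknown.

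Samples were grouped by their labels into 3 control and 3 TAX libraries. Values were set to log2(FPKM + 1), genes were kept where 3 or more of the 6 libraries reached 1 FPKM, and limma 3.58.1 (R 4.3.3) with a mean-variance trend was fitted to all 12359 genes, with Benjamini-Hochberg adjustment and a threshold of 0.05. Fold changes are on this scale, which understates those of low genes. Single genes also had an exact two-sided permutation test. The code was tested on simulated data. Alternatives were a pseudocount of 0.1, no filter, quantile normalization, median centring, no trend, a replicate block and leaving out each library. All 39 members were described. Values per library were given for members at an unadjusted p under 0.05 or without overlap, for the 4 highest and 4 lowest by level, and for E2F1, CDC6, MCM2 and PCNA, and of each other list for at most 4 genes with the smallest p, as means. The members and lists were chosen with earlier results of these data known. Promoter windows came from RefSeq (GRCh38.p14) and gene positions from GENCODE 29 (GRCh38). Bases after the start of 38 of 42 windows were found in a GENCODE transcript of the same gene, as a check of strand. Of the 39 genes, 14 share exon bases with a gene on the opposite strand, whose reads cannot be told apart without a strand setting. No protein sequences were used here. Some of the cell type markers are not reported here.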

Additional observations from a re-analysis of the deposited data

How the results depend on the processing

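No member reached an adjusted p under 0.05 in limma under any of 12 alternatives (lowest 0.367), and the largest fold change in size was 0.288 on the log2 scale. At an unadjusted p under 0.05, 3 members passed in at least 1 alternative: E2F1 without the filter (1 member) and without control 2, RFC2 without control 1 or TAX 1, and CCNE2 without TAX 2 (0 to 1 members over the libraries left out). The sign stayed the same in all 12 for 17 members. The count over all genes was 59, and became 1 without the filter, 95 with quantile normalization, 96 with median centring, and 19 (without TAX 2) to 40 (without control 2) with a library left out. For the other S-phase list, the median was -0.01 after either scaling (-0.008 and -0.010), and the count at an unadjusted p under 0.05 was 4, became 7 with quantile normalization and 1 (without TAX 2) to 8 (without control 1) with a library left out, where 0 to 1 reached an adjusted p under 0.05. For G2/M that count was 1, became 2 without the filter, 0 with either scaling and 0 to 4 with a library left out. The cause was not tested.

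With the replicate block, 26 genes in all reached an adjusted p under 0.05, and the unadjusted count was 1 for other S-phase and 0 for G2/M genes. Same-numbered libraries did not deviate together (r = -0.117, -0.334 and -0.171), so no deviation shared by number was seen. Whether the samples were paired by design cannot be told from this check.

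After quantile normalization and after centring, the log2 fold change was -0.053 and -0.038 for MCM6, -0.021 and -0.009 for CDC45, -0.031 and -0.030 for GINS4, -0.021 and -0.014 for PCNA, -0.029 and -0.008 for RFC4, -0.031 and -0.036 for POLA1, -0.024 and -0.014 for PRIM1, -0.010 and -0.002 for RPA2, -0.032 and -0.025 for TYMS, -0.064 and -0.053 for RRM2, -0.007 for RPA1 (quantile) and -0.005 for LIG1 (centring). With a library left out, it ran from -0.110 to 0.054 for ORC1, -0.095 to 0.019 for CDC6, -0.038 to 0.189 for MCM2, -0.031 to 0.069 for MCM6, -0.114 to 0.037 for MCM10, -0.010 to 0.138 for CDC45, -0.084 to 0.069 for GINS2, -0.025 to 0.083 for GINS4, -0.042 to 0.108 for PCNA, -0.022 to 0.089 for POLA1, -0.247 to 0.048 for POLA2, -0.011 to 0.203 for POLE, -0.065 to 0.031 for POLE2, -0.093 to 0.042 for FEN1, -0.021 to 0.102 for RPA2, -0.020 to 0.112 for TYMS, -0.074 to 0.049 for RRM2 and -0.027 to 0.130 for CCNE1.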
